A study of Macaca fascicularis with 3 samples.

Results

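The INHA-high cells were 1269 mouse ovarian somatic barcodes out of 4099 mouse barcodes and 7827 deposited barcodes. A barcode was counted as mouse when it held at least 1000 UMIs (unique molecular identifiers, one per captured RNA molecule) with under 1% of them in 13 mitochondrial genes of the monkey. It was counted as INHA-high when INHA reached at least 1500 CPM (counts per 1000000 UMIs of the barcode), UPK3B stayed under 2 UMIs, and LTF and EHF together stayed under 3 UMIs. There were 582 such barcodes of 1643 mouse barcodes in the E13.5 library, 242 of 717 in the E14.5 library and 445 of 1739 in the E15.5 library. INHA chose these cells, so its levels below are a description.

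The samples were 3 droplet single-cell libraries of xenogeneic reconstituted ovaries (xrOvary), aggregates of germ cells made from cynomolgus monkey embryonic stem cells with ovarian somatic cells of mouse embryos. Mouse cells of E13.5, E14.5 or E15.5 went into 1 library each, so stage and library cannot be told apart. Every library used the same wildtype monkey line, 15XRi-AGVT#7, which carries TFAP2C-EGFP and DDX4-tdTomato reporters, and was collected at the culture time labelled ag49+52, which means that the stage names the age of the mouse cells at aggregation. The aggregates were trypsinised, monkey germ cells positive for a reporter and small mouse cells negative for both were sorted separately, and the sorted cells were mixed again before loading, so mixing fixed how many mouse cells stand beside germ cells; the sources used here give no mouse strain or embryo number. The labels call the material early oogonia, which names the germ cells and not the mouse cells described here.

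Granulosa cells surround the oocyte in the ovarian follicle. They arise from supporting cells of the fetal ovary, through pregranulosa cells that express the transcription factor FOXL2 and the ligand WNT4. They secrete inhibins, dimers of the INHA alpha subunit with a beta subunit, which restrain follicle-stimulating hormone from the pituitary. In mice, AMH (anti-Müllerian hormone) appears in the granulosa cells of growing follicles, and the nuclear receptor NR5A2 is needed there for ovulation.

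Only monkey genes were counted in the deposited tables, so a mouse RNA was seen only where its reads mapped to the monkey gene. A level can therefore be compared between groups of mouse cells for 1 gene, but not between genes, and a gene near 0 here may still be expressed. INHA-high barcodes had a median of 7232.5 UMIs in the E13.5 library, 8348.5 in E14.5 and 6530 in E15.5, and summed totals of 4686470, 2221416 and 3701297 UMIs. The other mouse barcodes had medians of 6025, 5835 and 4885 UMIs in the same order of stages. Libraries shared 199, 643 and 212 barcode sequences in the pairs E13.5 and E14.5, E13.5 and E15.5, and E14.5 and E15.5, and 0 of these were INHA-high barcodes. Levels below are sums over the barcodes of a class in a library, in CPM, and their 95% exact Poisson intervals cover counting error only.

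For comparison, the INHA-low barcodes were divided with genes fixed as gates. Supporting-like barcodes held at least 2 UMIs of WNT4, AMHR2, FOXL2, LHX9 and EMX2 together, and more of these than of the stromal genes NR2F2, PDGFRA, TCF21, LUM and DCN; stromal-like barcodes were the reverse. The supporting-like class held 382, 232 and 622 barcodes in the E13.5, E14.5 and E15.5 libraries, and the stromal-like class 620, 192 and 545.

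INHA itself summed to 3929, 2829 and 3481 CPM in INHA-high barcodes of the E13.5, E14.5 and E15.5 libraries, against 559, 785 and 386 CPM in supporting-like and 43.4, 150 and 40.4 CPM in stromal-like barcodes. Single INHA-high barcodes lay between 1508 and 17423 CPM in the E13.5 library, between 1512 and 10915 CPM in the E14.5 library, and between 1506 and 13446 CPM in the E15.5 library. The levels formed a continuum across the threshold: 45, 35 and 36 barcodes lay between 1500 and 1750 CPM, and 40, 42 and 38 mouse barcodes lay between 1250 and 1500 CPM. Just inside the threshold AMH was 99.9, 332 and 253 CPM in the 3 libraries, and just outside it 176, 263 and 149 CPM, so AMH was higher inside in E14.5 and E15.5 and lower inside in E13.5. BMP3 was 149, 146 and 137 CPM just inside and 154, 89.3 and 114 CPM just outside.

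The granulosa label was checked with the markers given for it other than INHA. AMH, the hormone of the granulosa list, had 396, 471 and 379 CPM in INHA-high barcodes of the E13.5, E14.5 and E15.5 libraries, against 29.5, 104 and 27.5 CPM in all other mouse barcodes. The groups did not overlap. NR5A2 had 159, 158 and 102 CPM in INHA-high barcodes, against 29.9, 75.1 and 18.6 CPM in the others. BMP3, a ligand of the BMP family, had 157, 154 and 142 CPM in INHA-high barcodes, against 31.2, 50.5 and 24.6 CPM in the others. Again neither gene overlapped between the groups. The share of all genes without overlap is not given here. Of the 10015 genes tested below in this contrast, 11.2% were called higher in INHA-high barcodes. WNT4 did not separate them: it had 496, 584 and 627 CPM in INHA-high barcodes, against 539, 610 and 673 CPM in the others, slightly lower in each library.

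Other granulosa-lineage genes were also detected. FOXL2 had 48.4, 48.6 and 47.6 CPM in INHA-high barcodes, against 28.6, 25.9 and 15.9 CPM in the other mouse barcodes. ESR2, the estrogen receptor of granulosa cells, had 9.39, 7.65 and 10.5 CPM in INHA-high barcodes, against 2.16, 4.21 and 1.95 CPM in the others. FSHR, the receptor of follicle-stimulating hormone, had 7, 1 and 1 UMIs in all INHA-high barcodes of the 3 libraries, and CYP19A1, the aromatase that makes estrogen, had 2, 0 and 1 UMIs. FOXL2, ESR2, FSHR and CYP19A1 were named after their values were seen. Of the 5 label markers, INHA chose these barcodes. AMH, NR5A2 and BMP3 were higher in them than in the other mouse barcodes in each library, and WNT4 was not. The label was chosen with earlier results of these data known, so these markers are no independent check of it.

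**Figure D1:**
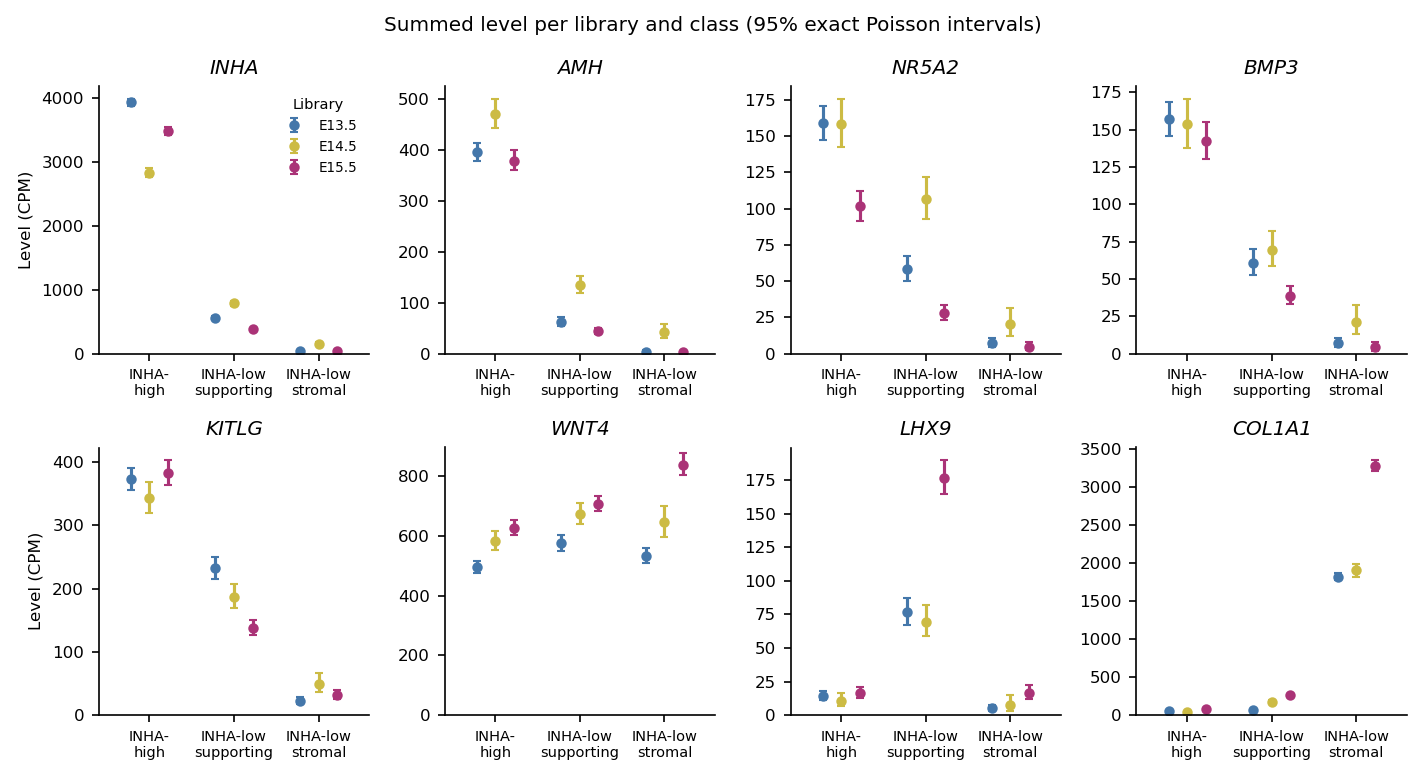
Summed level in CPM (vertical axis, linear from 0) of 8 genes in INHA-high, INHA-low supporting-like and INHA-low stromal-like barcodes; each point is 1 library, coloured by mouse stage, and bars are 95% exact Poisson intervals. AMH, NR5A2 and BMP3 step down from INHA-high to supporting-like to stromal-like in each library, WNT4 is near the same level in the 3 classes, and COL1A1 is highest in stromal-like; INHA chose the INHA-high class, and WNT4 and LHX9 helped choose the INHA-low classes.

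Immune and endothelial markers were near 0 in INHA-high barcodes, and markers of stroma and surface epithelium were not. The 10 immune markers summed to 0.213, 0 and 1.35 CPM in the 3 libraries, with 9, 10 and 7 of the 10 at 0. The 12 endothelial markers summed to 20.7, 9.45 and 18.9 CPM, with 7, 7 and 5 at 0, PECAM1 among them in every library. The 15 ovarian stroma markers summed to 908, 1000 and 1069 CPM, and 1 of the 15 was at 0 in each library; TCF4 gave 323, 328 and 426 CPM of that and NR2F2 278, 379 and 278 CPM. In supporting-like barcodes the same markers summed to 1035, 1606 and 1694 CPM. The 13 surface epithelium markers summed to 347, 282 and 332 CPM in INHA-high barcodes, against 634, 519 and 1000 CPM in supporting-like barcodes. The 10 theca and Leydig markers, which include NR2F2, summed to 430, 471 and 400 CPM in INHA-high barcodes, against 316, 436 and 350 CPM in supporting-like barcodes, whose gate counted NR2F2 against a barcode. In 32, 21 and 16 INHA-high barcodes (5.50%, 8.68% and 3.60%) the stromal gate genes had more UMIs than the supporting gate genes. The 12 germ cell markers summed to 21.8, 14.4 and 50.8 CPM in INHA-high barcodes, against 1352, 1526 and 1380 CPM in the monkey germ barcodes; what part this RNA has in any result was not tested.

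The cells also resembled each other in genes that the rule had not used. Within each library, the 15 nearest neighbours of every mouse barcode were found from 2000 variable genes without the genes of the rule and the gates. Among the neighbours of INHA-high barcodes, 77.2%, 76.3% and 78.0% were INHA-high in the E13.5, E14.5 and E15.5 libraries, against 37.8%, 37.2% and 19.2% among neighbours of supporting-like barcodes and 1.95%, 4.90% and 1.19% among those of stromal-like barcodes. INHA-high barcodes made up 35.4%, 33.8% and 25.6% of all mouse barcodes. Most INHA-high barcodes (89.2%, 89.7% and 87.6%) had INHA-high barcodes as the majority of their neighbours, and so did 36.4%, 40.1% and 16.4% of supporting-like barcodes, which lay beside them.

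The share of INHA-high barcodes with a UMI of AMH was 52.1% in E13.5 (95% Clopper-Pearson interval 47.9% to 56.2%), 69.8% in E14.5 and 61.3% in E15.5, against 11.3%, 30.6% and 7.88% of supporting-like barcodes. The monkey germ barcodes, which should lack mouse AMH, held a UMI in 3.92%, 5.73% and 4.90% at median depths of 43970, 39339 and 41808.5 UMIs. With every barcode thinned to 2500 UMIs, the shares were 36.5%, 49.2% and 40.8% in INHA-high barcodes, 7.08%, 18.3% and 4.70% in supporting-like barcodes, and 1.69%, 0.828% and 1.17% in germ barcodes. At least 1 of AMH, NR5A2 and BMP3 was seen in 84.0%, 94.2% and 85.2% of INHA-high barcodes, against 37.4%, 54.3% and 22.03% of supporting-like barcodes. At full depth AMH was therefore detected in 52.1%, 69.8% and 61.3% of INHA-high barcodes, and after thinning in a minority of them. In each library its share was higher in INHA-high than in supporting-like barcodes, at full and at equal depth.

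Which genes set the INHA-high cells apart from all other mouse cells was tested with edgeR's quasi-likelihood test on 6 sums, INHA-high and other mouse in each library, with library as a term and Benjamini-Hochberg adjustment. The 3 libraries were the only repeats, they differ in mouse stage, and nothing says that they came from separate experiments. With library as a term, the p-values weigh the difference between the classes against how far it varied over these libraries. That variation left 2 residual degrees of freedom per gene. The test therefore also drew the spread of each gene toward a trend over all genes, and the p-values rest in part on that trend. They cover these libraries only. Of 10015 genes tested, 1119 were higher in INHA-high barcodes (11.2%) and 1174 lower (11.7%) at an adjusted p under 0.05; a change of at least 2-fold was reached by 273 of the higher genes (2.73% of those tested) and 839 of the lower ones (8.38%). Without the E13.5 library 509 were called higher and 780 lower, and without the E15.5 library 595 were called higher. These counts are the background against which the gene lists are read: 22.9% of all tested genes were called in either direction.

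AMH led the genes that rose, at 9.46-fold (log2 fold change 3.24 ± 0.24 SE, adjusted p = 2.14e-05), ahead of SLC18A2, the vesicular monoamine transporter (2.68 ± 0.20), and LECT1, which encodes chondromodulin (2.63 ± 0.19). SLC18A2 had 62.5, 60.8 and 75.4 CPM in INHA-high barcodes, against 11.8, 14.1 and 6.90 CPM in the others, and LECT1 had 84.9, 66.2 and 107 CPM, against 8.48, 18.0 and 18.0 CPM. BMP3 (2.19 ± 0.13) and NR5A2 (1.99 ± 0.20) were also among the 12 that rose most. The others were BCL11A (2.10) and FOXP2 (2.03), both transcription factors, the malic enzyme ME3 (2.07), the collagen COL8A1 (2.07), ARHGAP31, which turns off small GTPases (2.05), the matrix protein OMD (1.96), and the ganglioside synthase ST3GAL5 (1.93). Each of the 12 was higher in INHA-high barcodes in 3 of 3 libraries.

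The chemokine CXCL14 led the genes that fell. It had 2.77, 5.40 and 1.35 CPM in INHA-high barcodes, against 123, 213 and 63.7 CPM in the other mouse barcodes (log2 fold change -5.38 ± 0.16, adjusted p = 2.37e-07, edgeR). Fibronectin, FN1, had 1.49, 3.15 and 0.811 CPM in INHA-high barcodes, against 46.7, 99.5 and 33.4 CPM (-5.00). The fibrillar collagens COL3A1 (-4.36) and COL1A1 (-4.22), the proteoglycan DCN (-4.21), the IGF-binding proteins IGFBP7 (-4.10) and IGFBP4 (-3.91), SPARCL1 (-3.99), EMILIN1 (-3.98), the prostacyclin synthase PTGIS (-3.97), the membrane protein GPM6A (-5.00) and the calcium-binding S100A6 (-4.41) made up the rest of the 12. All 13 tested genes of the ovarian stroma list fell, beside 11.7% of all genes tested. Their median log2 fold change was -3.60, beside 0.00 over all genes tested. The comparison group held the stromal-like barcodes, in which the same 15 markers gave more RNA, so this contrast does not separate INHA-high cells from their nearest neighbours.

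The closer contrast was with the INHA-low supporting-like barcodes. It was fitted on 12 sums, 4 mouse classes in each library, without the genes of the rule and the gates. All 4 classes shared 1 estimate of the spread. Of 10613 genes tested, 266 were higher in INHA-high barcodes (2.51%) and 348 lower (3.28%); 104 and 284 of these were at least 2-fold changed (0.98% and 2.68%), and 5.79% were called in either direction. Leaving out the E13.5 library left 60 higher and 94 lower calls, and leaving out the E15.5 library 116 and 150, whereas 281 and 421 were called without the E14.5 library. Supporting-like barcodes of the E14.5 library included 2 with over 40000 UMIs, and INHA-high barcodes 0; every named gene of this contrast kept its direction and its side of the threshold without them.

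AMH was again the gene that rose most (log2 fold change 2.61 ± 0.34 SE, 6.12-fold, adjusted p = 0.000287, edgeR), with 62.2, 135.3 and 43.7 CPM in supporting-like barcodes beside the INHA-high levels above. LECT1 (1.97 ± 0.23), SLC18A2 (1.95 ± 0.26), ME3 (1.76 ± 0.21), ARHGAP31 (1.70 ± 0.18), OMD (1.67 ± 0.21) and FOXP2 (1.61 ± 0.21) followed, with the serine protease PRSS23 at 182, 246 and 162 CPM in INHA-high and 43.7, 109 and 52.9 CPM in supporting-like barcodes (1.62 ± 0.15). The label markers BMP3 (1.49 ± 0.19, adjusted p = 0.000246) and NR5A2 (1.32 ± 0.19, adjusted p = 0.00065) also rose by edgeR. For NR5A2 the groups overlapped: 102 CPM in INHA-high barcodes of E15.5 lay below the 107 CPM in supporting-like barcodes of E14.5, although it was higher in INHA-high within each library.

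Supporting-like barcodes held genes that INHA-high barcodes nearly lacked. The chemokine CCL5 had 0, 2.25 and 1.35 CPM in INHA-high barcodes, against 22.03, 46.9 and 112 CPM in supporting-like barcodes (log2 fold change -5.77 ± 0.54, adjusted p = 3.44e-05, edgeR). GPM6A had 0.854, 2.70 and 1.62 CPM in INHA-high barcodes, against 19.8, 38.0 and 94.9 CPM (-4.94 ± 0.47). The keratin KRT19, found in the ovarian surface epithelium, had 7.68, 10.4 and 31.6 CPM in INHA-high barcodes, against 117, 117 and 373 CPM (-3.62 ± 0.33). KRT13 (-3.68), the transcription factor NFIB (-2.64), the galectin LGALS1 (-2.61), the ion-pump regulator FXYD1 (-2.57) and the RNA-binding BICC1 (-2.56) completed the 8 genes that fell most. All 8 were lower in INHA-high barcodes in 3 of 3 libraries, and for CCL5, GPM6A, KRT13 and KRT19 the supporting-like level was higher in E15.5 than in E13.5.

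**Figure D2:**
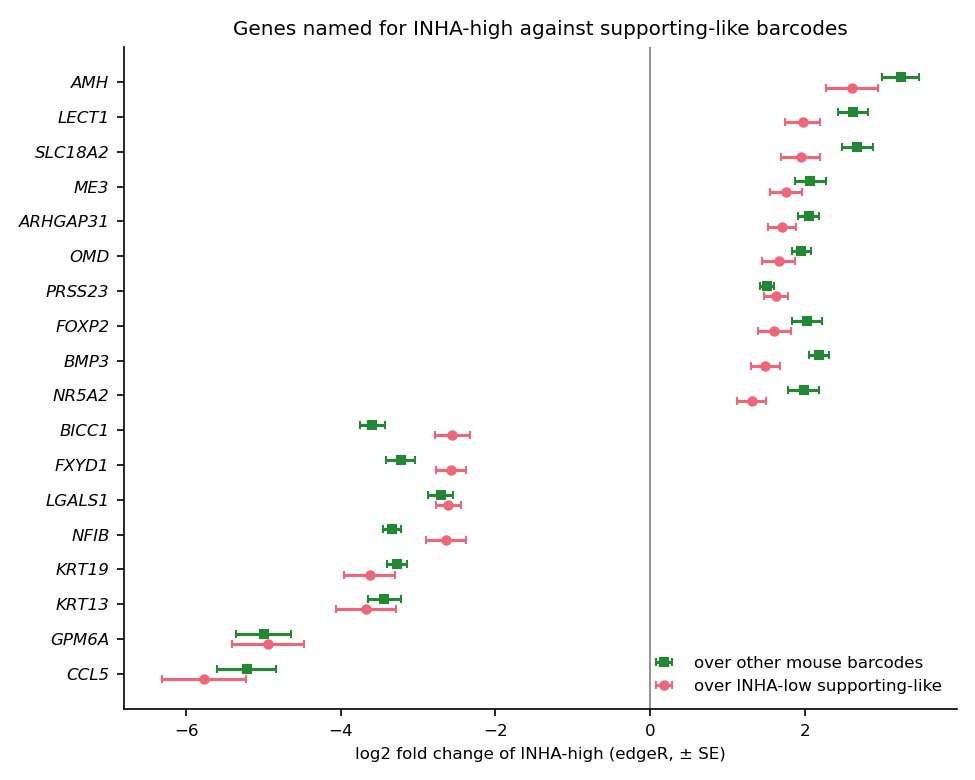
Log2 fold change of INHA-high barcodes (horizontal axis, edgeR) over all other mouse barcodes (squares) and over INHA-low supporting-like barcodes (circles), for the 16 genes named in the second contrast and for BMP3 and NR5A2. Bars are ± SE, derived from the log2 fold change and the edgeR test statistic on sums of 3 libraries. AMH stands at 3.24 and 2.61 and CCL5 and GPM6A at the other end; each gene has the same sign in both contrasts, which share the INHA-high sums.

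By function, the granulosa hormone and receptor list had 4 of 11 tested members higher and 0 lower against supporting-like barcodes (median log2 fold change 1.15, beside -0.02 over all genes tested). That was 36.4% called, beside 5.79% of all genes tested. Against all other mouse barcodes it had 6 of 12 higher and 1 lower (median 0.39), or 58.3% called, beside 22.9% of all genes tested. Several members of the list were chosen for this label and are no independent sign of its direction. Of the beta subunits that pair with INHA, INHBB had 6.83, 3.15 and 2.70 CPM in INHA-high barcodes, against 0.648, 2.96 and 0.475 CPM in supporting-like barcodes, and INHBA had 6.19, 7.20 and 7.29 CPM, against 5.83, 7.41 and 11.2 CPM. Neither passed the test in this contrast (adjusted p = 0.223 and 0.806, edgeR); both were named after their values were seen. FST, which binds activins, had 54.4, 80.6 and 54.6 CPM in INHA-high barcodes and 125, 97.3 and 73.6 CPM in supporting-like barcodes (adjusted p = 0.131). AMHR2, the AMH receptor and a gate gene, had 415, 175 and 493 CPM in INHA-high barcodes, against 212, 112 and 301 CPM in all other mouse barcodes (log2 fold change 0.79 ± 0.10, adjusted p = 0.000398); it was not tested against supporting-like barcodes, which it helped choose.

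Genes of contact with the oocyte rose in part. KITLG, the ligand of the KIT receptor on oocytes, had 373, 343 and 383 CPM in INHA-high barcodes, against 233, 187 and 138 CPM in supporting-like barcodes (log2 fold change 1.03 ± 0.21, adjusted p = 0.0061, edgeR). The groups did not overlap, and the share of all genes without overlap is not given here. GJA1, the connexin of granulosa gap junctions, had 601, 680 and 434 CPM in INHA-high barcodes, against 357, 479 and 234 CPM in supporting-like barcodes (0.75 ± 0.12, adjusted p = 0.00109). These were the 2 of 8 tested members of the contact list that rose, and 0 fell (25% called, beside 5.79% of all genes tested). BCL2, which restrains apoptosis, rose to 76.0, 82.8 and 65.4 CPM in INHA-high barcodes, against 36.6, 51.9 and 27.5 CPM (1.02 ± 0.19, adjusted p = 0.00441). It was the 1 call among 12 tested apoptosis genes (8.33%, beside 5.79% of all genes). TGFBR1, a receptor of the TGF-beta family (0.50 ± 0.12, adjusted p = 0.0198), was among 2 of 17 receptors and SMADs that rose (11.8% called). SKIL, a brake on SMAD signalling (0.52 ± 0.12, adjusted p = 0.015), rose while PMEPA1, also a brake on TGF-beta signalling, fell (-1.22 ± 0.26, adjusted p = 0.0106). They were the 2 calls among 14 tested genes of the response list (14.3%). Both shares stand beside 5.79% of all genes tested. PMEPA1 was named after its values were seen.

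The supporting and pregranulosa identity list was mixed. Against supporting-like barcodes 1 of 17 tested members, KITLG, rose and 4 fell (median log2 fold change -0.17). That was 29.4% called, beside 5.79% of all genes tested. LGR5, a WNT co-receptor that in mice marks cells of the ovarian surface and cortex, had 0.854, 0 and 1.89 CPM in INHA-high barcodes, against 9.72, 8.89 and 28.2 CPM (-3.92 ± 0.52, adjusted p = 0.000297, edgeR). RSPO1, a secreted amplifier of WNT signals, had 2.99, 0.900 and 1.35 CPM in INHA-high barcodes, against 15.6, 7.90 and 9.49 CPM (-2.60 ± 0.47, adjusted p = 0.00315). LGR5 and RSPO1 were named after their values were seen. CDKN1B, an inhibitor of the cell cycle, had 237, 214 and 246 CPM in INHA-high barcodes, against 370, 289 and 340 CPM (-0.49 ± 0.12, adjusted p = 0.0239). LHX9, a gonadal transcription factor and gate gene, is given as a description only: 14.3, 10.8 and 16.5 CPM in INHA-high barcodes, against 76.8, 69.2 and 176 CPM in supporting-like barcodes.

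Of the WNT list 6 of 21 tested members fell and 0 rose against supporting-like barcodes (28.6% called, beside 5.79% of all genes tested). AXIN2, a target of WNT signals, had 38.2, 40.5 and 58.9 CPM in INHA-high barcodes, against 78.1, 59.8 and 88.7 CPM in supporting-like barcodes (log2 fold change -0.72 ± 0.15, adjusted p = 0.00918, edgeR). The retinoic acid list had 4 of 16 lower and 0 higher (25% called, beside 5.79% of all genes tested). ALDH1A2, which makes retinoic acid, had 106, 90.9 and 86.2 CPM in INHA-high barcodes, against 255, 165 and 184 CPM in supporting-like barcodes (-1.07 ± 0.20, adjusted p = 0.00458). The surface epithelium list, which also holds ALDH1A2, had 5 of 8 lower and 0 higher (62.5% called). Markers of that epithelium were thus higher in the supporting-like class, and their part in the WNT and retinoic acid differences was not tested.

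Sertoli cells of the testis, which also make INHA and AMH, were looked for with their own list. SOX9, their defining transcription factor, had 17.3, 8.55 and 13.51 CPM in INHA-high barcodes, against 69.7, 45.9 and 57.2 CPM in supporting-like barcodes (log2 fold change -2.08 ± 0.23, adjusted p = 8.07e-05, edgeR), the opposite direction to AMH. Of the 8 tested members 3 fell and 0 rose (37.5% called, beside 5.79% of all genes tested). Against all other mouse barcodes 4 of 7 tested members fell and 2 rose (85.7% called, beside 22.9% of all genes tested). CLU was among those that rose there (log2 fold change 0.62 ± 0.13, adjusted p = 0.00755, edgeR). The 13 listed genes found in the tables summed to 120, 55.4 and 129 CPM in INHA-high barcodes, most of it CLU with 87.7, 35.6 and 98.3 CPM, and 3, 5 and 1 of the 13 were at 0. DHH, a hedgehog ligand of Sertoli and granulosa cells, was named after its values were seen; it had 6.61, 4.95 and 4.59 CPM in INHA-high barcodes and 0.648, 2.47 and 0.949 CPM in supporting-like barcodes (adjusted p = 0.0572).

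The dissociation stress list fell in part. Its 14 genes include early response genes induced by enzymatic dispersal. Against supporting-like barcodes 4 of 14 fell and 0 rose (28.6% called, beside 5.79% of all genes tested). Against all other mouse barcodes 10 fell and 1 rose (78.6% called, beside 22.9% of all genes tested). ATF3, a stress-induced transcription factor, had 63.6, 38.3 and 33.0 CPM in INHA-high barcodes, against 172, 206 and 120 CPM in supporting-like barcodes (log2 fold change -1.81 ± 0.37, adjusted p = 0.00718, edgeR). BTG2, an antiproliferative early response gene, had 948, 655 and 614 CPM in INHA-high barcodes, against 1490, 1079 and 1608 CPM (-0.89 ± 0.16, adjusted p = 0.00311). The cholesterol synthesis list had 6 of 17 higher and 0 lower against all other mouse barcodes (35.3% called, beside 22.9% of all genes tested). FDPS, an enzyme of the mevalonate pathway, led them (1.02 ± 0.10, adjusted p = 8.97e-05). Against supporting-like barcodes 0 of its 18 tested genes passed, and FDPS had 342, 212 and 302 CPM in INHA-high barcodes and 223, 146 and 160 CPM in supporting-like barcodes (adjusted p = 0.0864).

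Across barcodes that were INHA-high or supporting-like, several of these genes followed the level of INHA on both sides of the threshold. AMH had 8.41, 81.5, 160, 182, 408 and 571 CPM in E13.5 barcodes with INHA of 0 to 500, 500 to 1000, 1000 to 1500, 1500 to 2500, 2500 to 4000, and over 4000 CPM. In E15.5 the same bins gave 3.14, 112, 148, 289, 370 and 504 CPM, and in E14.5 29.0, 140, 212, 447, 420 and 780 CPM. BMP3 had no common course above the threshold: 157, 164 and 149 CPM in the 3 upper bins of E13.5. The same bins gave 165, 146 and 122 CPM in E14.5 and 129, 138 and 165 CPM in E15.5. SOX9 ran the other way, with 82.8, 57.0, 55.7, 22.3, 17.0 and 13.2 CPM in E13.5. GPM6A dropped at once, to 1.16 CPM in the second bin of E13.5 against 38.2 CPM in the lowest. Since INHA is part of the total of each barcode and defined the bins, these gradients are descriptions without a test.

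**Figure D3:**
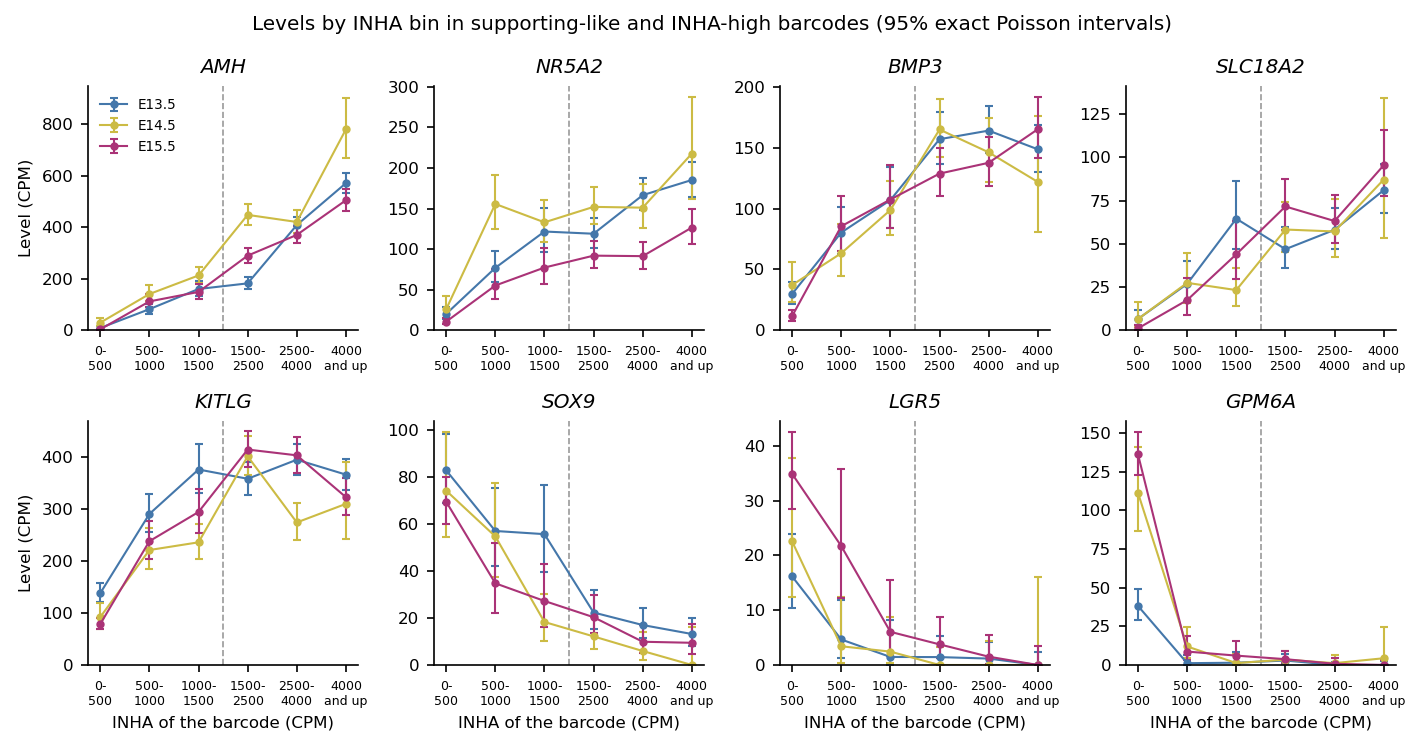
Summed level in CPM (vertical axis, linear from 0) of 8 genes in INHA-high and supporting-like barcodes grouped by their INHA level (horizontal axis, 6 bins in CPM, low to high); each line is 1 library, bars are 95% exact Poisson intervals, and the dashed line is the 1500 CPM threshold, with INHA-high to its right. AMH is lowest in the lowest bin and highest in the top bin in each library, with a dip from 447 to 420 CPM in E14.5 above the threshold, while SOX9, LGR5 and GPM6A are highest in the lowest bin.

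Across the stages, INHA-high barcodes were 35.4% of mouse barcodes in E13.5 (95% Clopper-Pearson interval 33.1% to 37.8%), 33.8% in E14.5 (30.3% to 37.3%) and 25.6% in E15.5 (23.6% to 27.7%). Of INHA-high and supporting-like barcodes together they were 60.4%, 51.1% and 41.7%. With every barcode thinned to 2500 UMIs they were 36.1%, 35.9% and 27.2% of mouse barcodes. The order of the stages depended on the threshold: 1000 CPM gave 40.9%, 44.8% and 30.5%, with E14.5 highest, and 2500 CPM gave 25.5%, 16.6% and 16.8%, with E14.5 beside E15.5. The share also depends on the sort, and 1 library per stage allows no test.

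AMH and the other label markers had no common course over the stages. AMH was highest in E14.5, with 471 CPM (443 to 501), beside 396 CPM (378 to 415) in E13.5 barcodes and 379 CPM (360 to 400) in E15.5. NR5A2 was lowest in E15.5, with 102 CPM (91.6 to 112), beside 159 CPM (148 to 171) in E13.5 barcodes and 158 CPM (142 to 176) in E14.5 barcodes. BMP3 lay between 142 and 157 CPM and KITLG between 343 and 383 CPM in the 3 libraries. None of these 4 genes differed 2-fold between stages.

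Genes past a size rule of at least 2-fold, on the log2 scale of CPM plus 1 and with at least 50 CPM in 1 of the libraries compared, were counted in place of a test. E15.5 against E13.5 gave 8 higher and 22 lower of 2976 genes (0.269% and 0.739%). E14.5 against E13.5 gave 0 higher and 107 lower of 2884 (0% and 3.71%), and E15.5 against E14.5 gave 113 higher and 16 lower of 2951 (3.83% and 0.542%), so E14.5 stood apart from both. In supporting-like barcodes 48 of the 107 were also at least 2-fold lower in E14.5 than in E13.5, and 44 of the 113 at least 2-fold higher in E15.5 than in E14.5. Without the 2 barcodes over 40000 UMIs, an alternative chosen after seeing the data, these were 79 of the 107 and 73 of the 113, where 3.68% and 4.13% of all genes at 50 CPM passed the same size rule in supporting-like barcodes. For E15.5 against E13.5, 16 of the 22 lower genes (1.11% of all genes) and 1 of the 8 higher genes (0.269%) passed it there too. The library of E14.5 also had the lowest total, and the part of the library in them cannot be told apart from that of the stage.

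Genes higher in INHA-high barcodes of E15.5 than of E13.5 were few. CELA1, an elastase, had 2.99, 1.35 and 84.6 CPM in the E13.5, E14.5 and E15.5 libraries, and 1.62, 3.95 and 68.8 CPM in supporting-like barcodes. It was near absent in both earlier libraries in either class. CELA3B, also an elastase gene, had 36.3, 64.4 and 114 CPM in INHA-high barcodes but 271, 229 and 265 CPM in supporting-like barcodes, so it was higher at the later stages in INHA-high barcodes and near level in supporting-like barcodes; the difference between the classes was not tested. BAMBI, a decoy receptor of BMP and TGF-beta ligands, had 79.0, 81.5 and 171 CPM in INHA-high and 97.8, 60.3 and 154 CPM in supporting-like barcodes. NCAPH2 (37.8, 52.2 and 86.5 CPM), AGAP3 (28.0, 33.3 and 58.4 CPM) and THAP4 (30.7, 33.3 and 64.0 CPM) were the other named genes of this direction.

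More genes were lower in E15.5. RNF152, a ubiquitin ligase, had 107, 41.4 and 10.3 CPM in INHA-high barcodes of the 3 libraries and 106, 45.9 and 16.6 CPM in supporting-like barcodes. SOCS3, a brake on cytokine signals, had 55.9, 14.9 and 11.1 CPM in INHA-high and 52.5, 22.7 and 12.6 CPM in supporting-like barcodes. PLAU, the urokinase protease, had 60.2, 41.4 and 14.3 CPM in INHA-high and 24.0, 19.8 and 7.12 CPM in supporting-like barcodes. In all of these the libraries kept the same order in both classes. TNNC1, a calcium-binding troponin, was level in the first pair of stages and lower in E15.5 (90.5, 94.5 and 25.7 CPM), and so was RASD1, a small GTPase (142, 146 and 52.1 CPM). The histone H4C9 (135.3, 74.7 and 29.2 CPM) and MTRNR2L5 (308, 151 and 35.4 CPM) also fall in this group by level, but both have near-identical copies elsewhere in the genome, so their counts are uncertain.

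Of the genes lower in E14.5 than in E13.5, GADD45G, a growth arrest gene, had 59.7, 11.7 and 24.9 CPM in INHA-high barcodes of the 3 libraries and 51.5, 3.95 and 13.3 CPM in supporting-like barcodes. ECH1, an enzyme of fatty acid breakdown, had 53.3, 11.3 and 53.5 CPM in INHA-high barcodes, and PARK7, a redox protein, 80.9, 24.3 and 82.1 CPM, so both were low in E14.5 alone. Without the 2 barcodes over 40000 UMIs, supporting-like barcodes had 58.6, 13.7 and 52.4 CPM of ECH1 and 87.2, 26.8 and 72.4 CPM of PARK7. POLR2G, TXNDC17 and AKR1B1 had the same dip, to 18.9, 13.1 and 12.2 CPM in E14.5. AMHR2 dipped too, to 175 CPM in E14.5 against 415 CPM in E13.5; it was named after its values were seen. Conversely ACTA2, smooth muscle actin, was highest in E14.5 (28.2, 57.2 and 10.0 CPM), as were STC1, a secreted glycoprotein (30.9, 57.6 and 16.2 CPM), and the splicing factor CWC22 (70.0, 126 and 43.2 CPM).

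**Figure D4:**
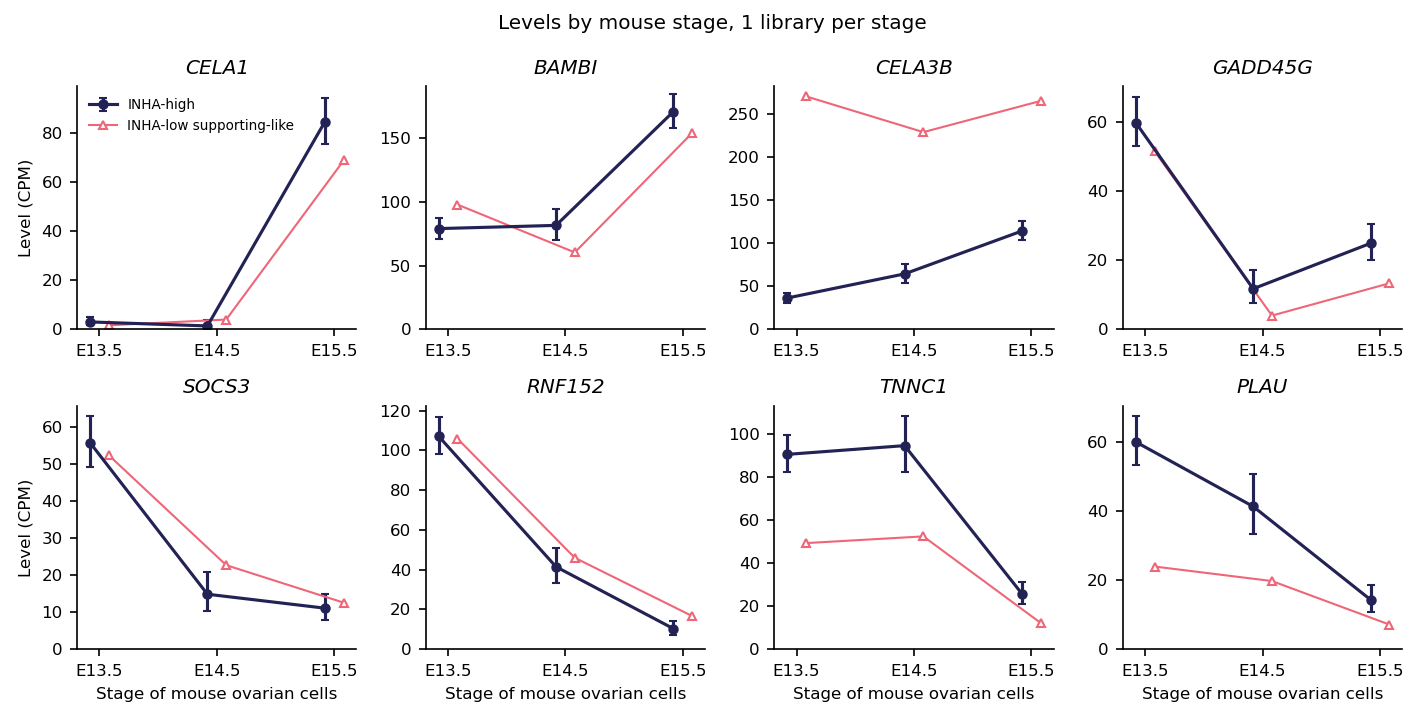
Summed level in CPM (vertical axis, linear from 0) of 8 named genes by mouse stage (horizontal axis, 1 library each) in INHA-high barcodes (filled circles, 95% exact Poisson intervals) and INHA-low supporting-like barcodes (open triangles). The order of the libraries is similar in both classes for most genes, with CELA1 near 0 until E15.5 and RNF152 lower at each later stage; no test between stages was possible.

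Cell cycle genes gave few UMIs in INHA-high barcodes. The 28 genes of the G2 and M phase list summed to 178, 120 and 314 CPM in INHA-high barcodes of the E13.5, E14.5 and E15.5 libraries, and to 270, 338 and 186 CPM in supporting-like barcodes. The order of the classes turned round in E15.5. Against supporting-like barcodes 0 of 27 tested members were called in either direction by edgeR, beside 5.79% of all genes tested. Against all other mouse barcodes 0 of 25 were called, beside 22.9% of all genes tested. TOP2A, a topoisomerase of dividing cells, had 17.1, 8.10 and 36.2 CPM in INHA-high and 40.5, 44.5 and 10.9 CPM in supporting-like barcodes, and was named after its values were seen. In E14.5 the supporting-like values of 338 CPM for the list and 44.5 CPM for TOP2A include the 2 barcodes over 40000 UMIs. The levels of the list and of TOP2A without those barcodes are not given here. The order of the classes in E14.5 is therefore described only with them included. The E13.5 and E15.5 libraries held 0 such barcodes in either class. Leaving out barcodes with at least 3 UMIs of 4 germ cell genes gave 178, 120 and 316 CPM in INHA-high and 223, 331 and 186 CPM in supporting-like barcodes. Thinned to 2500 UMIs, 3.47%, 3.33% and 7.29% of INHA-high barcodes held at least 2 UMIs of the list, against 7.90%, 10.3% and 6.71% of supporting-like and 87.1%, 86.1% and 84.5% of germ barcodes, whose RNA is from the species counted. Germ cell markers were also highest in INHA-high barcodes of E15.5, as given above, and their part in the E15.5 level was not tested.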

How the data were processed

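Per the labels' protocols, libraries were made with the 10x Chromium 3′ v3.1 kit. The authors deposited raw UMI counts per monkey gene and called barcode, for which the file headers name Cell Ranger 6.0.1; the sources used here give no build or annotation. Of 26017 features, 9282 had LOC names, and 669 were given symbols through gene numbers in a RefSeq table. Barcodes under 1000 UMIs (323, 202 and 186) were left out. No doublet caller was run; the checks instead left out barcodes with germ cell RNA or over 40000 UMIs. Counts were summed per library and class and tested with edgeR 4.0.16 (filterByExpr, TMM, library term, adjusted p under 0.05), without the 17 rule genes and, in the second contrast, the 10 gate genes. Data were also simulated with 1 fixed spread for all genes and no difference between libraries or classes except in the changed genes, all of at least 20 CPM. There, 96% of genes changed 2-fold and 100% of those changed 3-fold were recovered in each contrast. These rates need not hold for the real libraries. Stages, with 1 library each, were described by size only. Alternatives covered scaling, DESeq2 1.42.0, filters, thresholds, depth and each library. The members and gene lists were chosen with earlier results of these data known. Named genes were the 12 or 8 largest called changes each way with at least 50 CPM and 3 of 3 libraries, the 6 largest stage ratios each way, and up to 4 per list (28 lists, 417 of 427 genes found); a gene these rules select is not reported here. Clopper-Pearson and Poisson intervals and counts of 0 cover counting error only; 3 counts correspond to 0.640, 1.35 and 0.811 CPM in INHA-high barcodes.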

Additional observations from a re-analysis of the deposited data

Results flagged for a closer look

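Ribosomal protein genes had opposite ratios between stages in the 2 classes, which was not tested. RPL29 in E14.5 over E13.5 had a log2 ratio of -1.94 in INHA-high barcodes and 1.60 in supporting-like barcodes, and in E15.5 over E14.5 of 1.92 and -2.15. RPL7A in E14.5 over E13.5 had -1.31 and 1.36, and in E15.5 over E14.5 1.04 and -1.84. RPL21 in E15.5 over E14.5 had 1.20 in INHA-high and -1.65 in supporting-like barcodes. Without the 2 supporting-like barcodes over 40000 UMIs in the E14.5 library, an alternative chosen after seeing the data, RPL29 had 72.9, 18.6 and 49.4 CPM in supporting-like barcodes over the 3 stages from E13.5 on, with the same dip in E14.5 as in INHA-high barcodes, so the opposite ratios were not present without them. RPL7A was then 214, 85.5 and 176 CPM in INHA-high and 231, 85.3 and 165 CPM in supporting-like barcodes, and RPL21 51.6, 16.7 and 39.4 CPM in INHA-high and 70.3, 23.5 and 42.0 CPM in supporting-like barcodes. In monkey germ barcodes RPL29 had 1422, 1717 and 1791 CPM in the E13.5, E14.5 and E15.5 libraries. What part germ cell RNA has in the E14.5 supporting-like values was not tested. These genes also have near-identical copies in the genome, which makes their counts uncertain.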

How the results depend on the processing

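Fold changes were followed for 26 genes against all other mouse barcodes and 19 against supporting-like barcodes: the named genes, the label markers and KITLG. None of these turned sign, and the signs of the other tested genes were not compared. The order of the stage shares and the RPL29, RPL7A and RPL21 stage ratios in supporting-like barcodes did turn, as given above. Against all other mouse barcodes, calls higher and lower were 586 and 754 with DESeq2 and 268 and 614 without the library term, and 509 to 1260 and 780 to 1502 when each library was left out. Against supporting-like barcodes they were 36 and 129 without the library term and 60 to 281 and 94 to 421 without each library; higher calls were 159 at an INHA threshold of 2500 CPM, 422 without barcodes with germ cell RNA and 455 with only the 2 classes fitted, and lower calls 624 with no filter and 615 without germ cell RNA. AMH, FOXP2, NR5A2 and KITLG missed the threshold in this contrast without the library term, and KITLG at 2500 CPM (log2 fold change 0.54); WNT4 against all other mouse barcodes passed it, lower in INHA-high, without E14.5 (-0.17), at 1000 CPM (-0.26) and thinned (-0.37). The fits with INHA-high barcodes that had more supporting than stromal UMIs, and without barcodes over 40000 UMIs, were chosen after seeing the data and moved no count by over 1.5 times. Genes at least 2-fold higher in E14.5 than E13.5 were 6 with TMM scaling, 12 with DESeq2 size factors, 1 with a pseudocount of 0.1, 6 at a minimum of 20 CPM, 16 and 3 at INHA thresholds of 1000 and 2500 CPM, and 9 thinned; lower ones were 68 with size factors and 236 at 20 CPM. For E15.5 over E13.5, higher ones were 5 with a pseudocount of 5 and 28 at 20 CPM, and lower ones 60 at 20 CPM and 37 thinned. For E15.5 over E14.5, higher ones were 67 with TMM, 66 with size factors and 301 at 20 CPM, and lower ones 29 with TMM, 29 with size factors, 38 at 20 CPM, 29 at an INHA threshold of 1000 CPM and 38 thinned. Size factors put the median log2 ratio of all genes at 0.24 for E14.5 over E13.5 and -0.15 for E15.5 over E14.5. INHA-high shares were 40.9%, 44.8% and 30.5% of mouse barcodes at 1000 CPM and 25.5%, 16.6% and 16.8% at 2500 CPM. Thinned shares with a UMI were 36.5%, 49.2% and 40.8% for AMH, 30.7%, 32.1% and 18.5% for NR5A2, and 3.47%, 3.33% and 7.29% for the G2 and M list; AMH had 56.8% in E13.5 at 2500 CPM and 56.4% in E15.5 at 1000 CPM. The cause of these shifts was not tested. Between stages, no paired analysis was possible because each stage has 1 library; classes were paired within libraries by the library term. Genes under the 3-count floor could not be compared at this depth.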
